A study of Homo sapiens with 4 samples.

Results

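The enzymes of glycolysis and gluconeogenesis, together with the kinases that switch off pyruvate dehydrogenase, were followed through 32 genes. A gene was included when a probe other than a control carried its symbol as gene name on the array. All 32 were found, on 40 of the 34127 probes and among 25992 gene names. Of these, 24 were represented by 1 probe and 8 by 2.

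Human proximal tubular cells (HPTCs) were profiled on 4 one-colour Agilent oligonucleotide arrays. The labels give HK-2 for 2 of them (replicates 1 and 2, here H1 and H2) and RPTEC/TERT1 for the others (replicates 1 and 2, here R1 and R2). HK-2 cells are human proximal tubule cells immortalised with papillomavirus genes, and RPTEC/TERT1 cells are proximal tubule cells immortalised with telomerase, so each group is 1 cell line. All 4 cultures had been kept without serum and supplements for 24 h and then received IL-1β at 10 ng/mL together with empagliflozin (Empa) at 500 nM for another 24 h. Empa is an inhibitor of the glucose transporter SGLT2, and the cells were grown under normoglycemic conditions. The methods describe biological duplicates for each condition. Since every array carries the same treatment, the comparison open to these 4 arrays is that between the cell lines, and cells with IL-1β alone or without stimulation were not analysed here.

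Glycolysis turns glucose into pyruvate in the cytosol, with commitment at hexokinase, phosphofructokinase and pyruvate kinase, and lactate dehydrogenase turns pyruvate into lactate. Gluconeogenesis runs the other way and bypasses those 3 steps with pyruvate carboxylase, phosphoenolpyruvate carboxykinase, fructose 1,6-bisphosphatase and glucose 6-phosphatase. The proximal tubule of the kidney is known for making glucose and for using little of it, whereas cultured and dividing tubule cells are known to use glycolysis.

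The level of a gene is given as log2 of its processed signal over the 75th percentile of all probes on the same array, so that 0 is the signal of that percentile. The lowest level that can be read is -5.37. A probe's brightness also depends on its own sequence, and levels are therefore compared between arrays for 1 gene and never between genes. RNA per cell and the number of cells making it cannot be told apart in these cultures.

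The 4 arrays did not group by their labels. Over the 25 enzyme genes that could be tested, the median absolute difference between H1 and R2 was 0.20, and between H2 and R1 it was 0.34. Between the 2 arrays labelled HK-2 it was 0.67 and between the 2 labelled RPTEC/TERT1 it was 0.72. Over all 16468 genes tested, the same 4 medians were 0.22, 0.30, 0.67 and 0.79. Each array was thus closest to 1 array of the other label, for the enzymes and for the whole array alike. H2 and R1 stayed closest to each other under every alternative. With normexp background correction, however, R2 was closer to R1 (0.61 for the enzymes, 0.52 for all genes) than to H1 (0.98 and 1.14), and with the deposited log2 values this held over all genes (0.48 against 0.63) and not for the enzymes (0.59 against 0.35). The replicate number was also the day of the scan, with both replicate 1 arrays on the first day and both replicate 2 arrays on the second. A difference between the labelled cell lines below is therefore a difference between labels, and what sets the arrays apart was not tested. Whether 2 samples were exchanged was not tested either, and an exchange would change what every such difference means.

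Sequences are shown for the probes whose reading needs them. The 3 probes, for LDHA (the muscle-type chain of lactate dehydrogenase) and PFKL (the liver-type phosphofructokinase), are given as deposited, 5′ to 3′. The LDHA pair is shown because its probes lie on different chromosomes in the array files (GRCh37), the first at chr11:18428789-18428848 and the second at chr9:14921817-14921876, and the PFKL probe, which spans chr21:45744490-45744749 and so crosses an intron, because PFKL had the widest spread of all the enzymes.
LDHA, chromosome 11: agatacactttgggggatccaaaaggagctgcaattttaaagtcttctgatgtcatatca
LDHA, chromosome 9: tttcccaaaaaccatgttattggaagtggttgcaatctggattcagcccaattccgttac
PFKL: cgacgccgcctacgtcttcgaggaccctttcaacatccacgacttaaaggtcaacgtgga

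Most of the pathway was measured. Of the 32 genes, 24 were well above background on all 4 arrays, 2 on some arrays and 6 on none. The 2 were ALDOC and GPI, and the spots of GPI on H1, H2 and R2 were left out as outliers. With outlier spots kept, 25 genes were well above background on all 4 arrays. The 6 that were not well above background on any array were HK3, a hexokinase of blood cells, PKLR, the liver and red cell pyruvate kinase, and 4 enzymes of glucose production, namely PCK1, the cytosolic phosphoenolpyruvate carboxykinase, FBP1 and FBP2, the fructose 1,6-bisphosphatases, and G6PC, the catalytic subunit of glucose 6-phosphatase (now G6PC1). Each of the 6 lay at the lowest readable level on every array except PKLR, which reached -5.11 on H1, still not well above background. Each was read by 1 probe, so a probe that works poorly and a transcript that is scarce cannot be told apart.

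No enzyme differed between the labelled cell lines by the test. Of 25 genes tested, limma with Benjamini-Hochberg adjustment over all genes called 0, against 0% of the 16468 genes, and no enzyme reached an unadjusted p below 0.05, against 0.14% of all genes. The 5 with the smallest p are given with HK-2 minus RPTEC/TERT1 in log2 units and the standard error of the fit. PFKFB2 differed by 0.38 (SE 0.49, unadjusted p = 0.477, limma adjusted p = 1), TPI1 by -0.35 (SE 0.47, unadjusted p = 0.498, limma) and PGK1 by -0.30 (SE 0.43, unadjusted p = 0.521, limma). PKM differed by -0.49 (SE 0.76, unadjusted p = 0.557, limma) and ENO1 by -0.29 (SE 0.50, unadjusted p = 0.589, limma), and both had an adjusted p of 1. PKM turned to 0.43, ENO1 to 0.086 and TPI1 came to -0.08 when H2 was left out. PFKFB2 came to 0.02 without R2 and turned to -0.26 when spots marked as outliers were kept. The median difference over the 25 enzymes was -0.17, and 0.017 over all genes, and with normexp it was -0.48 and 0.36. These p-values rest on 2 arrays a group that did not resemble each other, so they do not show that the cell lines are alike.

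**Figure D1:**
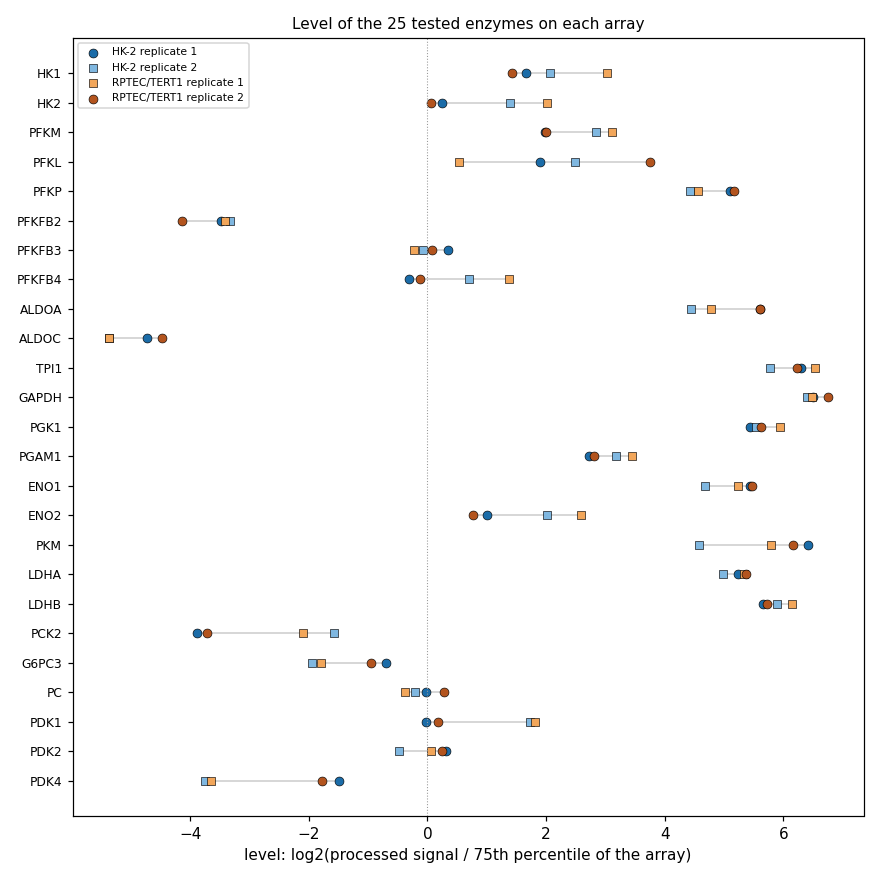
Level of each of the 25 tested enzymes (rows, in the order of their roles) on the 4 arrays. The horizontal axis is log2 of the processed signal over the 75th percentile of the array. Circles are H1 and R2 (HK-2 replicate 1, RPTEC/TERT1 replicate 2), squares are H2 and R1, and each grey line spans the 4 arrays of a gene. PDK1, HK2, ENO2 and PCK2 have both squares to the right, and PDK4 has both circles to the right.

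Hexokinases trap glucose in the cell as glucose 6-phosphate. The gene HK2, which encodes hexokinase 2 and is not the cell line HK-2, had levels of 0.25 on H1, 1.40 on H2, 2.01 on R1 and 0.07 on R2. It was thus high on H2 and R1, at least 2.22-fold above the other 2 arrays, and the labelled cell lines overlapped. A second HK2 probe was not well above background on any array. HK1, the hexokinase found in most tissues, read 1.66 and 2.06 on the HK-2 arrays and 3.03 and 1.42 on the RPTEC/TERT1 arrays, replicate 1 first. It was highest on the same 2 arrays as HK2, by a smaller margin of 0.40. GPI, which turns glucose 6-phosphate into fructose 6-phosphate, had a usable spot only on R1, at 5.75. Its spots on the other arrays were marked as outliers, so it was not tested.

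Phosphofructokinase commits the sugar to glycolysis and has 3 genes with different patterns here. PFKM, the muscle type, read 1.99 and 2.84 on HK-2 and 3.12 and 2.00 on RPTEC/TERT1. PFKP, the platelet type, read 5.09 and 4.43 on HK-2 and 4.56 and 5.17 on RPTEC/TERT1. PFKM was therefore higher on H2 and R1, and PFKP on the other pair, although PFKP left that order after normexp background correction. A second PFKP probe, at 4.11 and 3.49 on HK-2 and 3.68 on R1, was an outlier on R2 and did not enter. PFKL, read by the junction probe above, stood at 1.90 and 2.49 on HK-2 and 0.53 and 3.75 on RPTEC/TERT1. The 2 RPTEC/TERT1 arrays thus lay at both ends of a range of 3.22, and both HK-2 arrays lay between them.

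The bifunctional PFKFB enzymes make and break fructose 2,6-bisphosphate, the activator of phosphofructokinase. PFKFB4 read -0.32 and 0.69 on HK-2 and 1.37 and -0.13 on RPTEC/TERT1, and so followed PFKM. PFKFB3, the form known for strong kinase activity and induction by inflammatory signals, read 0.35 and -0.07 on HK-2 and -0.22 and 0.07 on RPTEC/TERT1. That mean hides a disagreement between its 2 probes, which were 3.85, 2.65, 3.17 and 3.15 for one and -3.15, -2.79, -3.61 and -3.01 for the other, in the order H1, H2, R1 and R2. The first probe was highest on H1 and the other on H2. PFKFB2 read -3.48 and -3.32 on HK-2 and -3.42 and -4.14 on RPTEC/TERT1 by a dim probe. Its brighter probe, 0.52 and 0.53 on HK-2 and -0.56 on R2, was an outlier on R1 and did not enter. Both PFKFB2 probes were lowest on R2.

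Aldolase splits fructose 1,6-bisphosphate, and triose phosphate isomerase interconverts the 2 products. ALDOA, the main aldolase of most cells, read 5.62 and 4.44 on HK-2 and 4.78 and 5.61 on RPTEC/TERT1. ALDOC, the brain aldolase, was near the lowest readable level at -4.73 and -5.37 on HK-2 and -5.37 and -4.48 on RPTEC/TERT1, and was well above background on H2 and R2 and not on H1 or R1, so its order over the arrays cannot be read. ALDOA was higher on H1 and R2, which did not hold after normexp. TPI1 read 6.30 and 5.77 on HK-2 and 6.54 and 6.23 on RPTEC/TERT1. Both replicate 1 arrays were the higher ones for TPI1, by 0.07.

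The later steps harvest ATP and NADH. The ranges over the 4 arrays were 0.34 for GAPDH, 0.52 for PGK1, 0.73 for PGAM1 and 0.79 for ENO1, and 1.82 for ENO2 and 1.84 for PKM. With normexp those of GAPDH, PGK1 and PGAM1 were 1.36, 1.64 and 1.59, and with the deposited log2 values 0.61, 0.96 and 1.03. GAPDH, which oxidises glyceraldehyde 3-phosphate, read 6.50 and 6.40 on HK-2 and 6.49 and 6.75 on RPTEC/TERT1. Of its 10 spots, 4 were saturated on H2, so the level there may be too low. PGK1, the first ATP-yielding enzyme, read 5.43 and 5.54 on HK-2 and 5.95 and 5.63 on RPTEC/TERT1. Both RPTEC/TERT1 arrays were above both HK-2 arrays for PGK1, by 0.09. Quantile normalization and the deposited log2 values did not keep that order. The 10 spots of its probe had a standard deviation of 0.042 to 0.090 within an array, which does not measure the spread between cultures.

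PGAM1, the phosphoglycerate mutase, averaged 2.72 and 3.17 on HK-2 and 3.45 and 2.81 on RPTEC/TERT1. Its 2 probes differed, one at 4.27 and 4.88 on HK-2 and 4.76 and 4.66 on RPTEC/TERT1, the other at 1.16 and 1.46 and at 2.13 and 0.96. Both probes were higher on H2 and R1. ENO1, the enolase of most tissues, read 5.44 and 4.69 on HK-2 and 5.23 and 5.48 on RPTEC/TERT1. ENO2, the enolase known from neurons and also from hypoxic cells, read 1.01 and 2.02 on HK-2 and 2.58 and 0.77 on RPTEC/TERT1. The 2 enolases thus had opposite orders, ENO2 being at least 2.02-fold higher on H2 and R1, and the order of ENO1 changing under normexp, quantile normalization and the deposited log2 values. PKM, the pyruvate kinase of non-hepatic tissue, read 6.41 and 4.57 on HK-2 and 5.80 and 6.16 on RPTEC/TERT1. H2 stood apart from the other 3 arrays for PKM, by 1.22 from the nearest.

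Lactate dehydrogenase joins glycolysis to lactate. LDHA averaged 5.23 and 4.98 on HK-2 and 5.33 and 5.37 on RPTEC/TERT1. Its chromosome 11 probe read 6.20 and 5.62 on HK-2 and 6.13 and 6.36 on RPTEC/TERT1, and its chromosome 9 probe 4.26 and 4.33 on HK-2 and 4.53 and 4.38 on RPTEC/TERT1. Only the mean of the 2 and the chromosome 9 probe put both RPTEC/TERT1 arrays on top, by 0.10 for the mean, and LDHA lies on chromosome 11, so RNA from an LDHA-like sequence elsewhere cannot be told apart for that probe. LDHB, the heart-type chain, averaged 5.65 and 5.89 on HK-2 and 6.16 and 5.73 on RPTEC/TERT1. One of its probes was saturated on H2, where it read 6.36, against 6.43 on H1 and 6.68 and 6.54 on RPTEC/TERT1. The unsaturated LDHB probe read 4.88 and 5.43 on HK-2 and 5.63 and 4.93 on RPTEC/TERT1, higher on H2 and R1. Genes of this pathway such as GAPDH, PGK1 and LDHA have many processed copies in the genome, which these probes may also read.

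Of the gluconeogenic enzymes, only PCK2, PC and G6PC3 were measured. PCK2, the mitochondrial phosphoenolpyruvate carboxykinase, read -3.88 and -1.58 on HK-2 and -2.09 and -3.71 on RPTEC/TERT1. Its better probe read -2.39 and -0.17 on HK-2 and -0.35 and -2.30 on RPTEC/TERT1, and the other was well above background on H2 and R1 alone. Both PCK2 probes were higher on those 2 arrays, at least 3.08-fold for their mean, in which the second probe enters at or near the lowest readable level, an order that normexp and the deposited log2 values did not keep. G6PC3, the glucose 6-phosphatase subunit present in most tissues, had the other order, at -0.70 and -1.94 on HK-2 and -1.80 and -0.95 on RPTEC/TERT1. PC, the pyruvate carboxylase that makes oxaloacetate in mitochondria, read -0.02 and -0.20 on HK-2 and -0.39 and 0.28 on RPTEC/TERT1. Its range was 0.67.

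Pyruvate dehydrogenase kinases switch off the enzyme that feeds pyruvate to the citric acid cycle, and 2 of the 3 measured differed widely between arrays, in opposite directions. PDK1, known as a target of hypoxia-inducible factor, read -0.02 and 1.72 on HK-2 and 1.81 and 0.18 on RPTEC/TERT1. PDK4, known to rise in fasting and with fatty acid use, read -1.49 and -3.75 on HK-2 and -3.64 and -1.78 on RPTEC/TERT1. PDK1 was at least 2.91-fold higher on H2 and R1, and PDK4 at least 3.63-fold higher on H1 and R2. With the deposited log2 values the least difference of PDK4 between those arrays shrank from 1.86 to 0.91 log2 units. PDK2, the widely made form, read 0.32 and -0.49 on HK-2 and 0.06 and 0.25 on RPTEC/TERT1. It was lowest on H2.

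The enzymes thus divided over the arrays in both directions. H1 and R2 were the 2 highest arrays for 11 of the 25 enzymes, against 38.8% of all genes tested. These were PFKP, PFKFB3, ALDOA, ALDOC, GAPDH, ENO1, PKM, G6PC3, PC, PDK2 and PDK4. For ALDOC the order rests on spots not above background, and for GAPDH on a difference of 0.0079 with saturated spots on H2, so neither of these can be read. Only 4 of the 11 kept their order under every alternative way of processing, ALDOC among them. PFKP, PFKFB3, ALDOA, GAPDH, ENO1, PKM and PDK2 did not. H2 and R1 were highest for 10, against 33.2% of all genes, namely HK1, HK2, PFKM, PFKFB2, PFKFB4, PGAM1, ENO2, LDHB, PCK2 and PDK1. Of these 10, 7 kept their order under every alternative, and PFKFB2, LDHB and PCK2 did not. The shares of 44% and 40% lay near those of all genes and say nothing particular of the enzymes. Both RPTEC/TERT1 arrays were highest for 2 enzymes (2.81% of all genes), both HK-2 arrays for 0 (4.36%), both replicate 1 arrays for 1 (9.75%) and both replicate 2 arrays for 1, PFKL (10.8%). Among the enzymes of these last orders, only PFKL kept its order under every alternative.

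**Figure D2:**
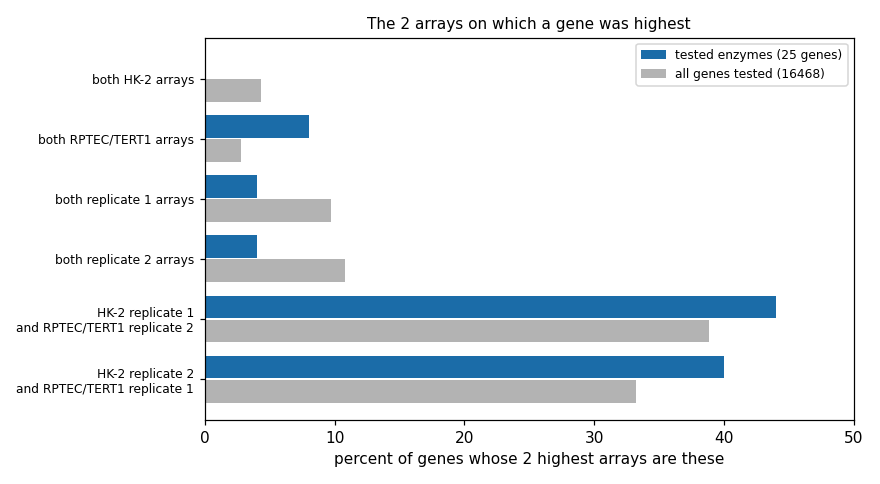
Share of genes (horizontal axis, percent) for which the 2 arrays named on the vertical axis were the 2 highest of 4. Blue bars are the 25 tested enzymes and grey bars all 16468 genes tested; the 2 orders that cross the labels hold 44% and 40% of the enzymes and 38.8% and 33.2% of all genes.

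With at least 1 log2 unit between the 2 higher and the 2 lower arrays, PDK4 alone remained of the 11, against 11.7% of all genes, and HK2, ENO2, PCK2 and PDK1 of the 10, against 11% of all genes. With the deposited log2 values PDK4 fell short of 1 unit and 0 of the enzymes higher on H1 and R2 reached it. The order of HK2, ENO2, PDK1 and PDK4 was the same with normexp, deposited log2 values and quantile normalization, and that of PCK2 only with the last of these. The filters on dim genes cannot change an order, nor can the choice of probe for a gene with 1 probe. A range over the arrays of at least 1 log2 unit was reached by 12 of 25 enzymes, against 52.9% of all genes.

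Within replicate 1 and within replicate 2, the difference between the labels had opposite signs for 22 of 25 enzymes, against 85.1% of all genes. The median of the enzymes was -0.06 within replicate 1, and 0.12 over all genes. Within replicate 2 it was -0.34, and -0.08 over all genes.

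**Figure D3:**
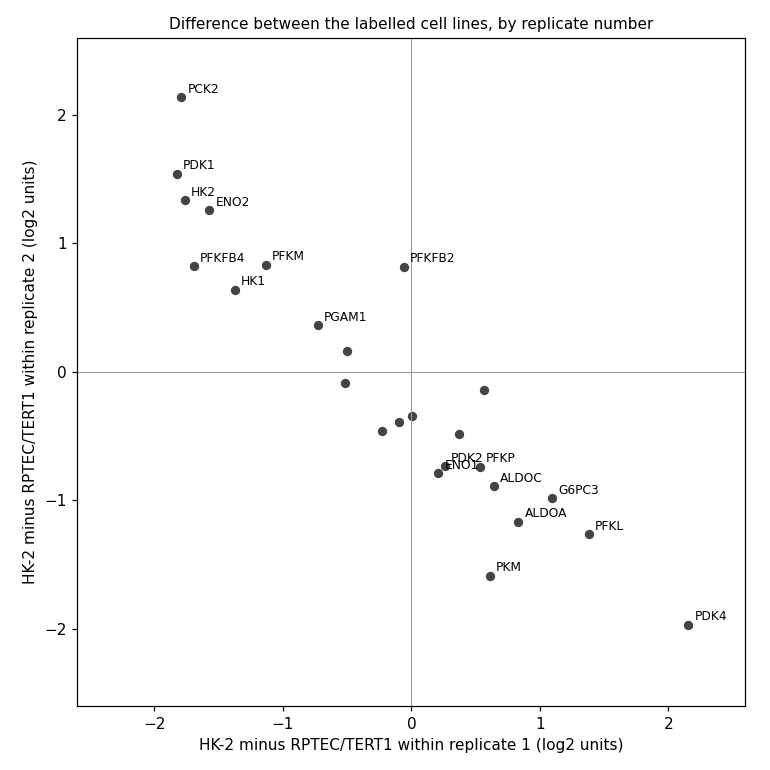
Each point is 1 of the 25 tested enzymes. The horizontal axis is HK-2 minus RPTEC/TERT1 within replicate 1 and the vertical axis the same within replicate 2, both in log2 units; 22 points lie to the upper left or lower right, where the 2 differences have opposite signs.

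The other genes of glucose metabolism were taken from lists drawn up by function, and none of them was called between the labelled cell lines. Up to 3 genes with the widest range are named for each list. Of 20 further glycolysis isoforms and regulators, 12 were well above background on all arrays and 13 were tested, with 0 called. BPGM, which makes 2,3-bisphosphoglycerate, read 3.61 and 0.43 on HK-2 and 0.25 and 3.39 on RPTEC/TERT1. ENO3, the muscle enolase, had the reverse order at -2.28 and 0.17 on HK-2 and 0.40 and -2.58 on RPTEC/TERT1. PDK3, another pyruvate dehydrogenase kinase, followed PDK1 at -2.31 and -1.27 on HK-2 and -0.45 and -2.53 on RPTEC/TERT1.

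Of 15 genes for the entry of pyruvate into mitochondria and for lactate transport, 13 were well above background on all arrays and 13 were tested, with 0 called. SLC16A4, a monocarboxylate transporter family member, read -4.59 and -0.90 on HK-2 and -0.81 and -4.26 on RPTEC/TERT1. SLC16A7, the transporter MCT2, read -1.75 and -3.51 on HK-2 and -3.84 and -1.66 on RPTEC/TERT1, and MPC1, a subunit of the mitochondrial pyruvate carrier, 0.10 and -1.40 on HK-2 and -1.64 and 0.40 on RPTEC/TERT1. Both were higher on H1 and R2, the arrays on which PDK4 was high, and SLC16A4 was higher on the other pair.

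The 9 genes of the pentose phosphate pathway, which makes NADPH and ribose, were all tested, with 0 called. TALDO1, the transaldolase, read 6.18 and 4.67 on HK-2 and 4.56 and 6.06 on RPTEC/TERT1, and H6PD, the enzyme of the endoplasmic reticulum, -3.65 and -5.37 on HK-2 and -5.23 and -4.23 on RPTEC/TERT1. H1 and R2 were highest for 6 of the 9, against 38.8% of all genes.

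Of 13 glycogen genes, 11 were tested and 0 called. PHKA1 and PHKA2 encode regulatory subunits of phosphorylase kinase. They read -5.37 and -3.30 on HK-2 and -3.11 and -5.10 on RPTEC/TERT1 for PHKA1. The levels of PHKA2 were -0.83 and 0.70 on HK-2 and 0.83 and -0.82 on RPTEC/TERT1. Both subunits were higher on H2 and R1. UGP2, which makes UDP-glucose, read 2.10 and 2.22 on HK-2 and 1.21 and 2.37 on RPTEC/TERT1, with R1 the lowest.

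Among 14 regulators of these genes, 12 were tested and 0 called, with ranges over the arrays of 4.62 for FOXO1 and 2.88 for PPARGC1A. FOXO1, which drives gluconeogenic genes and PDK4 in fasting, read -0.35 and -4.97 on HK-2 and -4.84 and -0.82 on RPTEC/TERT1. PPARGC1A, a coactivator of mitochondrial and gluconeogenic genes, read -0.74 and -3.62 on HK-2 and -3.51 and -1.24 on RPTEC/TERT1. Both were higher on H1 and R2, like PDK4, G6PC3 and PC and unlike PCK2. Their part in the levels of these enzymes was not tested.

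Of 10 hypoxia markers outside the enzymes, 8 were tested and 0 called, and they did not share 1 order. VEGFA, the angiogenic growth factor, read -1.13 and 1.24 on HK-2 and 0.63 and 0.02 on RPTEC/TERT1. EGLN3, a prolyl hydroxylase that marks the hypoxia-inducible factor for decay, read -2.38 and -3.62 on HK-2 and -3.27 and -1.85 on RPTEC/TERT1, and ADM, the peptide adrenomedullin, 1.71 and 0.64 on HK-2 and 0.86 and 2.07 on RPTEC/TERT1. VEGFA was higher on H2 and R1, as PDK1 and ENO2 were, and EGLN3 and ADM on the other pair.

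**Figure D4:**
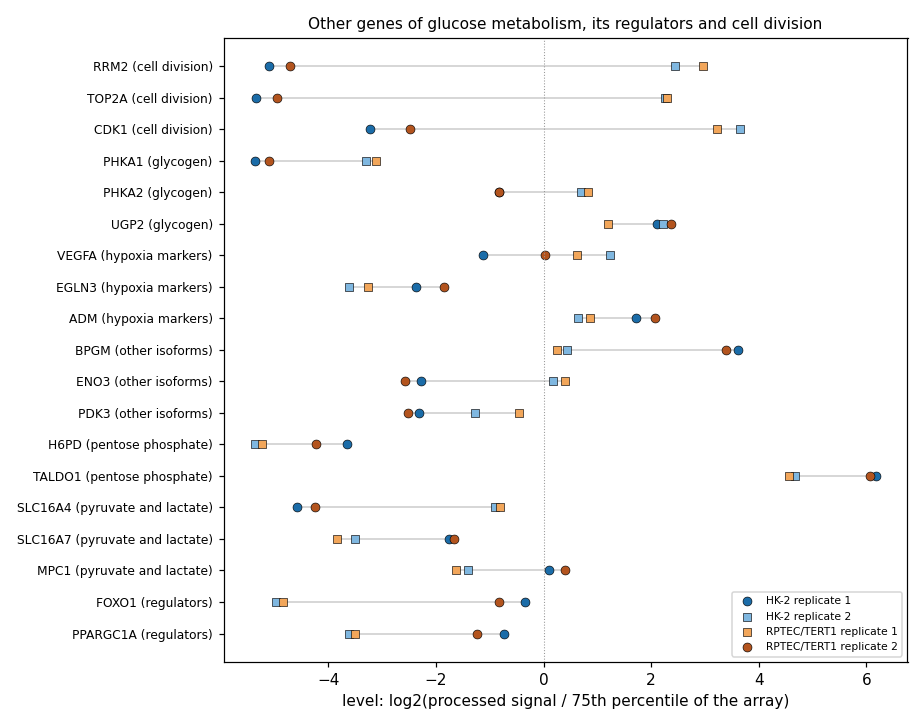
Level on each of the 4 arrays (log2 of processed signal over the 75th percentile of the array, horizontal axis) for up to 3 genes of each list, taken from those with the widest range. Circles are H1 and R2, squares H2 and R1; circles and squares lie apart for FOXO1 and BPGM, and most of all for the cell division genes RRM2, TOP2A and CDK1.

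Genes of other processes moved with the same arrays. All 11 tested of 12 cell division genes were higher on H2 and R1 by at least 1 log2 unit, against 11% of all genes, with a median range of 4.59. RRM2, for deoxynucleotide synthesis, read -5.11 and 2.44 on HK-2 and 2.97 and -4.71 on RPTEC/TERT1. TOP2A, a topoisomerase, and CDK1, the mitotic kinase, had the same order. Their part in the levels of HK2, ENO2, PCK2, PDK1 and PDK4 was not tested.

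The log2 of the summed scaled signal of the 11 division genes with a value on every array was 1.74 and 6.04 on HK-2 and 6.17 and 1.78 on RPTEC/TERT1. For 12 proximal tubule markers it was 1.37 and 1.24 on HK-2 and 1.04 and 1.49 on RPTEC/TERT1, with 5 well above background on all arrays and CUBN, SLC22A6, DPEP1 and SLC13A1 on none. ANPEP, a brush border peptidase, was at 0.49 on H1, at 0.47 on R2 and at the lowest readable level on the other arrays. MIOX went the other way, at -3.06 and -0.07 on HK-2 and -0.39 and -2.51 on RPTEC/TERT1. Of the 7 tested proximal tubule markers, H1 and R2 were highest for 3 and H2 and R1 for 3. SLC5A2, which encodes SGLT2, read -3.84 and -3.08 on HK-2 and -3.57 and -3.05 on RPTEC/TERT1.

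The 4 epithelial markers summed to 4.65 and 4.05 on HK-2 and 3.60 and 4.80 on RPTEC/TERT1, and CDH1, E-cadherin, was readable on H1 (-0.72) and R2 (-1.12) only. The 4 fibroblast and mesangial markers summed to -3.25 and 0.92 on HK-2 and 0.52 and -3.28 on RPTEC/TERT1, with LUM and DCN high on H2 and R1 and PDGFRB not well above background. The sums of the 4 leukocyte markers ranged from -2.23 to -1.46, and the 4 endothelial ones from -2.35 to -1.34. The 6 markers of the loop of Henle and distal nephron summed to -0.11 and -1.90 on HK-2 and -1.90 and 0.26 on RPTEC/TERT1. Among them SLC12A1, the cotransporter of the thick ascending limb, read -0.51 on H1 and -0.10 on R2 and lay at the lowest readable level on H2 and R1, so it moved with the arrays on which PDK4 was high. UMOD did not, at -3.04 and -2.77 on HK-2 and -2.77 and -2.70 on RPTEC/TERT1. It alone was well above background on all arrays, and 4 of the 6 were so on none. The sums therefore follow SLC12A1 and not the list. How far markers of other cells bear on the enzymes was not tested.

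HK2, ENO2 and PDK1 are known targets of hypoxia-inducible factor, and the part of that factor in the levels was not tested. The promoters of the 5 enzymes with at least 1 log2 unit between the pairs are shown. They are 250 bases before a transcript start in RefSeq (GRCh38.p14), 5′ to 3′ on the strand of the gene, with ACGTG or GCGTG, read on either strand, in capitals. Where 2 starts were listed, as for HK2 and PDK1, the one with more matches is given. The window of 300 bases around the other start held 3 matches for HK2 and 0 for PDK1.
HK2, chr2:74834920-74835169, plus strand: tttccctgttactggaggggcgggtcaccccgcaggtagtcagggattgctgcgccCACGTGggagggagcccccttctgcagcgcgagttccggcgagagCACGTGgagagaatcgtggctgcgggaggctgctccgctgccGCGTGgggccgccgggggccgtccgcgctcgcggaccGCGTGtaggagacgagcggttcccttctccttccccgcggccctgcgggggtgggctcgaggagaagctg
ENO2, chr12:6914330-6914579, plus strand: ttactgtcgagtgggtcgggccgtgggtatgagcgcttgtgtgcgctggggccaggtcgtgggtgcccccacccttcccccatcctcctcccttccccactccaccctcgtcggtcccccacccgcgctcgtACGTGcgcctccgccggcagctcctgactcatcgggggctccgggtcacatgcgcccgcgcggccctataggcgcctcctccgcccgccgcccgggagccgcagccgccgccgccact
PCK2, chr14:24094061-24094310, plus strand: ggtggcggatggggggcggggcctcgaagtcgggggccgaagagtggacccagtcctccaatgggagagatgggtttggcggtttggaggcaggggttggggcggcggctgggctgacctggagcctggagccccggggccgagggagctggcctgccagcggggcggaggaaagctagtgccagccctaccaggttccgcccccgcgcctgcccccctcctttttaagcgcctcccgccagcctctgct
PDK1, chr2:172555840-172556089, plus strand: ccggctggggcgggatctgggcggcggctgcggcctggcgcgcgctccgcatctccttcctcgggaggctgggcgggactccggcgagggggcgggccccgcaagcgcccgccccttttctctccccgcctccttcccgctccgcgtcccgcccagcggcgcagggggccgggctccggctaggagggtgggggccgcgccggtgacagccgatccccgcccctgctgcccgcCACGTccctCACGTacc
PDK4, chr7:95596517-95596766, minus strand: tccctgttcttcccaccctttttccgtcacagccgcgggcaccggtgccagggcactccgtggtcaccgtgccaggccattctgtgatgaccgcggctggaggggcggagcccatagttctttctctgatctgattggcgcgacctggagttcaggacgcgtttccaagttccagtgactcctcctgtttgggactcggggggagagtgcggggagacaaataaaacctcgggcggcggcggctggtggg

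The HK2 stretch held 6 matches, PDK1 2 and ENO2 1, and those of PCK2 and PDK4 held 0. A CACGTG counts once on each strand. Of the 32 enzymes, 30 had a window in the RefSeq promoter table, 59 windows in all. Over whole windows of 300 bases around a start, 59.3% of those of the enzymes and 48.4% of all 35116 in the table held at least 1 match. The windows of the enzymes higher on H2 and R1 held one in 10 of 23 and those of the enzymes higher on the other pair in 16 of 23. PGK1 and LDHA, for which both RPTEC/TERT1 arrays were highest, held 4 matches for PGK1 and 6 and 1 for the starts of LDHA. Neither gene kept that order under every alternative way of processing. Windows of 1 gene overlap, and a match in letters is not a bound site.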

How the data were processed

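Gene expression was measured on 4 one-colour arrays, with group and replicate number taken from the labels. The authors deposited linear spot intensities (Feature Extraction 9.5.3.1), background-subtracted and without scaling from array to array. A series table of log2 values, likewise deposited, ranked spots as median signal minus local background did (Spearman 1 on each array). Its column medians were 8.33, 7.14, 6.75 and 6.72 for H1, H2, R1 and R2. Its scaling and centring remain unknown, and it served as an alternative.

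Each signal was set against the 75th percentile of its array (393, 748, 488 and 429 for H1, H2, R1 and R2), floored at 0.0242 of it and taken to log2. Control spots and outlier-marked spots (1.24% to 1.85%) were left out, and 59.2% to 64.9% of spots were well above background. Probes with values on all arrays and above background on at least 1 were averaged per gene. Genes well above background on at least 2 arrays were tested with limma 3.58.1 (lmFit, eBayes) in R 4.3.3, with Benjamini-Hochberg adjustment. The fit was run on simulated data with independent noise and no likeness of arrays across the labels. That run checks the code and does not bear on the calls here. The number of arrays, 2 a group, limits the precision.

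For RNA isolation the methods give innuPREP and the labels RNeasy. Symbols are those of the array's design, and 39 of the 40 probes' accessions were in the RefSeq gene table. Enzymes well above background on at least 1 array are named with every level, the 5 with the smallest p with their test, and from each list the 3 widest ranges, of which some genes are not reported here. SLC5A2, HIF1A and the cell type markers were named after their values were seen. The enzymes and lists were chosen with earlier results of these data known. Alternatives were normexp (offset 50), the log2 table, quantile normalization, other dim filters, the brightest probe, outliers kept, a replicate block and leaving out each array.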

Additional observations from a re-analysis of the deposited data

Results flagged for a closer look

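Within replicate 1 and within replicate 2, 6 enzymes differed between the labelled cell lines by at least 1 log2 unit in opposite directions. The share of all genes that did so was not computed, so the 6 say nothing particular of the enzymes. Of all genes, 36.0% differed by at least 1 log2 unit between H1 and R1 and 33.7% between H2 and R2. Opposite signs held for 85.1% of all genes. Each value compares 1 array with 1 array, so the difference between the replicates was not tested. HK-2 minus RPTEC/TERT1 was -1.76 within replicate 1 and 1.33 within replicate 2 for HK2. It was 1.38 and -1.27 for PFKL. For ENO2 it was -1.57 and 1.26. PCK2 gave -1.79 and 2.14, and PDK1 gave -1.82 and 1.54. PDK4 had the reverse signs, at 2.16 and -1.97.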

How the results depend on the processing

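No enzyme and no gene was called under any alternative, with 3 to 241 genes at an unadjusted p below 0.05 and 0 enzymes among them. PFKFB2 turned from 0.38 to -0.26 with outlier spots kept. Leaving out 1 array moved PKM between -1.41 and 0.43 and ENO1 between -0.67 and 0.086, both above 0 only without H2. It moved PFKFB2 between 0.02 and 0.74, TPI1 between -0.61 and -0.08 and PGK1 between -0.46 and -0.14.

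The 2 arrays on which enzymes were highest depended on the processing. With normexp, both HK-2 arrays were highest for 1 enzyme in place of 0, both RPTEC/TERT1 arrays for 8 in place of 2, and H1 with R2 for 6 in place of 11. The median absolute difference from H1 then rose to 1.16 for H2, 1.28 for R1 and 0.98 for R2, while R2 lay at 0.61 from R1. With the deposited log2 values, both HK-2 arrays were highest for 1 enzyme, both replicate 1 arrays for 2 and both replicate 2 arrays for 2. Quantile normalization gave 0 for both RPTEC/TERT1 arrays and 4 for both replicate 1 arrays. The brightest probe gave 2 for both replicate 1 arrays, and so did keeping outlier spots. The cause was not tested.

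Same-numbered arrays deviated from the means of their labelled groups in opposite directions (correlation -0.81 across genes). That value depends on the labels and would also be affected by an exchange of samples. It therefore cannot decide whether the replicate number pairs the cultures. The fit with a replicate block called 0 genes, with 5 at an unadjusted p below 0.05. A crossed replicate block, added after seeing the data, called 0 and had 183. The array order was not computed with 1 array left out. A slide block was not run.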
